A study of Mus musculus with 18 samples.

Results

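Transcripts of the mitochondrial respiratory chain and ATP synthase were followed in MEL cells, a mouse erythroleukemia line that resembles early red cell precursors, during 6 days with hexamethylene bisacetamide (HMBA), an inducer of their differentiation toward hemoglobin-making cells. Members were the probes whose platform annotation gave a single symbol of the Nduf, Sdh, Uqcr, Cox4 to Cox8, cytochrome c or Atp5 families and that held a value on at least 5 of the 18 arrays. Of 6868 probes, 23 matched the symbols and 22 met the minimum, among 4658 probes of any gene that did. With 1 probe a gene, they covered 5 genes of complex I, 9 of complex IV and 8 of complex V, and 0 probes of complex II, complex III or cytochrome c were among them. At the minimum, Cox8b was just inside with 5 arrays and Ndufaf3 with 6, and Cox7a1 was just outside with 3 arrays and centred log2 ratios of -0.93 and -0.31 (days 1 and 2 in series A) and of 0.77 (day 5 in series B).

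Each two-colour array set total RNA of HMBA-treated MEL cells against RNA of control cells without HMBA, and every value below is the log2 ratio of an array minus that array's median, unless a difference is named. Series A had 1 array on each of days 0, 1, 2, 3, 4, 5 and 6, and series B had 1 on each of days 0, 2, 3, 4, 5 and 6. In series B, 5 further arrays marked SD covered days 0, 2, 3, 5 and 6. Their channel labels for treated and control RNA were exchanged on days 2, 3, 5 and 6. On the 3 day 0 arrays both channels held control RNA. No genotype, clone or separate culture was named, so the p-values measure only the spread between these arrays, which may be technical.

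The respiratory chain passes electrons from NADH and succinate to oxygen and pumps protons across the inner mitochondrial membrane, and ATP synthase (complex V) uses the return of those protons to make ATP. Complex I is the entry point for NADH, and complex IV, cytochrome c oxidase, reduces oxygen. Most of their subunits are encoded in the nucleus and imported, while the catalytic cores of complexes I and IV also contain subunits encoded by mitochondrial DNA. Erythroid precursors need mitochondria for heme synthesis and lose them as reticulocytes mature into red cells.

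Ratios were available for 2008 to 4945 probes an array and for 9 to 22 of the members. Over the shared probes, 3 arrays of series A correlated least with the others: the median correlation was 0.17 for day 1, 0.0043 for day 2 and 0.158 for day 3, against 0.397 to 0.601 for the other 15 arrays, and the lowest correlation among 153 pairs of arrays was -0.14. The direction was taken as likely treated over control on the arrays not marked SD, from the channel labels and from the hemoglobin gene family. The probe annotated Hba-ps3, an alpha-globin pseudogene whose probe may read other alpha-globin transcripts, was between 3.87 and 6.38 on the 6 arrays of days 4 to 6 and at 0.51 and 0.67 on the day 0 arrays of series A and B. It was at -4.25, -2.78 and -4.20 on the SD arrays of days 2, 5 and 6. On the SD array of day 3 it was at 0.94, a sign that goes against the exchanged label. That value was still below its 1.73 on the SD array of day 0. The beta-globin probe Hbb-b2 was at 1.05, -0.09, -0.86 and -3.11 on the SD arrays of days 2, 3, 5 and 6, so on day 2 it went against the label that Hba-ps3 followed. The sign of the SD values is uncertain in a second way. On the 5 SD arrays the high values, and on the other 13 the low values, were the steps of a ratio with 3 decimals (100 percent of them), which is the pattern of a sign turned before deposit. If the authors turned these arrays to treated over control, the difference between a B and an SD array would cancel the treatment, and their mean would cancel a bias toward 1 channel. Which holds is not given in the sources used here, and it was not tested. The B and SD arrays correlated at 0.66 on day 0, where both channels held control RNA. On days 2, 3, 5 and 6 they correlated at 0.58, 0.42, 0.43 and 0.52. Over these 4 days Myb was at -2.39, -0.57, -0.97 and -1.13 on the B arrays. On the SD arrays it was at 1.00, -0.72, 1.51 and 0.05. Alas2 was at 3.25 on the B array of day 6, and at -2.04 and -2.72 on the SD arrays of days 5 and 6. The difference between a B and an SD array is used below because Hba-ps3 ran opposite ways on 3 of 4 pairs. The mean is given beside it.

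Respiratory chain probes lay below the array median on nearly every array, on day 0 too. Of 317 member values, 252 (79.5 percent) were below 0, against 49.5 percent of the values of all probes with at least 5 values. On the day 0 arrays, where both channels held control RNA, 53 of 54 member values (98.1 percent) were below 0. The median over the members on these arrays was -0.94 in series A, -1.97 in series B and -2.49 on the SD array. Over all arrays, it ran from -2.98 (day 4 of series B) to 0.16 (day 2 of series A), and was below 0 on 17 of 18 arrays. As deposited, 32 of 53 pairs of member values on the B and SD arrays of days 2, 3, 5 and 6 were below 0 on both arrays, 5 were above 0 on both, and over all probes 30.9 percent of pairs were below 0 on both. Without day 3 it was 29 of 44 pairs, against 32.3 percent. Whether the channels were exchanged between these values depends on the uncertain sign of the SD arrays. On day 0, 13 of 14 member pairs were below 0 on both arrays, against 28.5 percent over all probes. The 20 probes of cytosolic ribosomal proteins showed the same side, with 85.6 percent of values below 0 and array medians between -4.47 and 0.57. Since the day 0 arrays had the low ratios too, the comparisons below are differences between arrays. Set against 0 in place of day 0, the ratios of days 4 to 6 passed by limma for 4 of 13 members (Cox4i1, Cox5b, Cox7a2l and Cox7c, all below 0), against 25.4 percent of 1211 probes. Of these 1211 probes, 196 passed above 0 and 112 below.

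**Figure D1:**
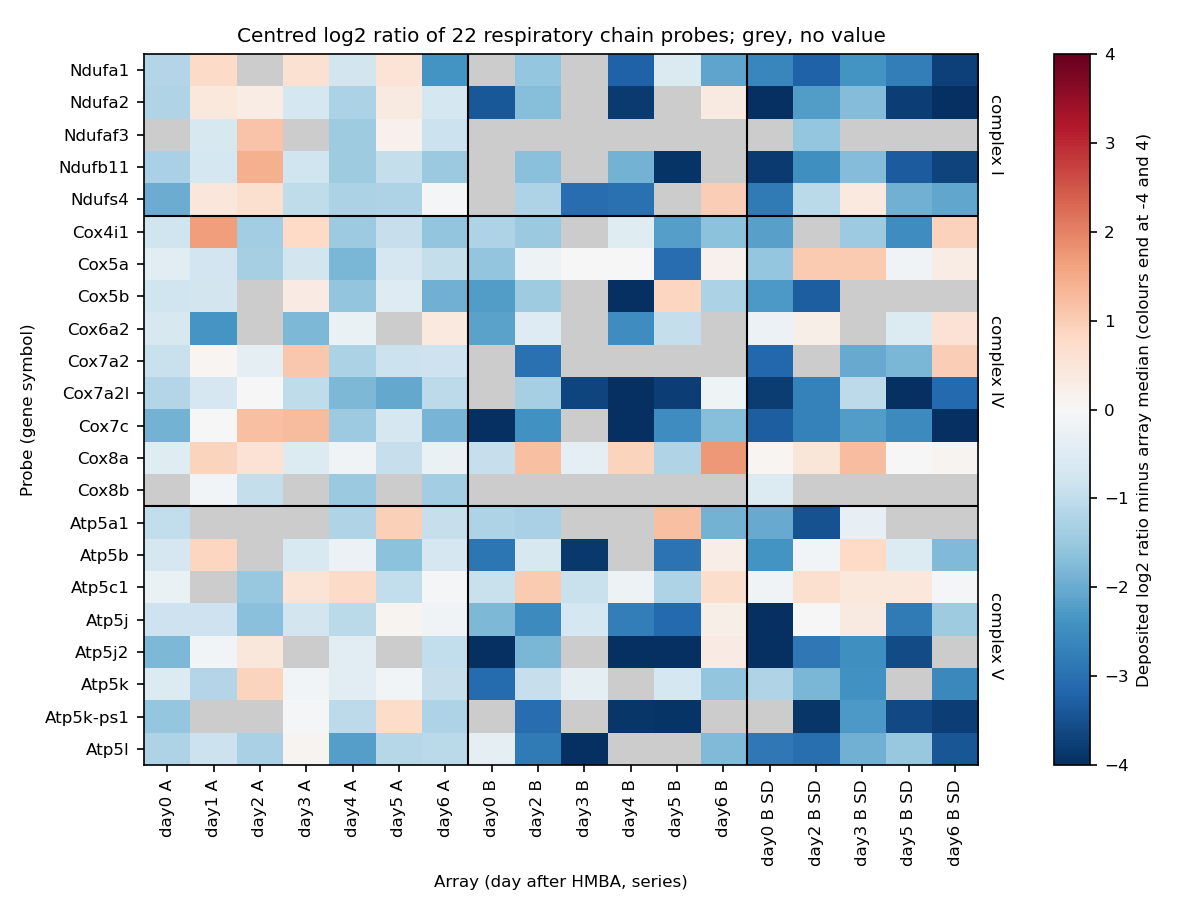
Centred log2 ratio (colour) of the 22 members (rows, grouped by complex) on the 18 arrays (columns, series A, B and SD); grey cells had no value. Blue cells below the array median prevail, 252 of 317, and the columns of days 1 and 2 in series A are paler than that of day 0 in series B.

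In series A the median over the members was -0.94, -0.12, 0.16, -0.32, -1.26, -0.67 and -0.93 from day 0 to day 6. Days 1 and 2 were the highest and day 4 the lowest. In series B it was -1.97, -1.45, -0.90, -2.98, -2.34 and -0.0049 on days 0, 2, 3, 4, 5 and 6, so that day 6 was the highest and day 4 again the lowest. The ribosomal protein probes had medians of -1.60, -0.02, 0.57, -0.26, -1.79, -1.90 and -1.63 on days 0 to 6 of series A. The higher days 1 and 2 were thus not confined to respiratory chain probes. In series B the ribosomal medians were -3.26, -1.78, -3.33, -4.47, -2.93 and -1.67, also lowest on day 4 and highest on day 6. Among the complexes, complex I had the widest course in series A, from -1.25 on day 0 to 0.42 and 0.90 on days 1 and 2 and to -1.27 on day 4. Complex IV went from -0.80 on day 0 to -0.12 on day 1, -0.37 on day 2 and -1.44 on day 4. Complex V was at -0.91, -0.81 and -1.29 on days 0, 1 and 2, and had its highest values on day 3 (-0.08) and day 5 (-0.11). On each of days 1 and 2, 5 of its 8 probes were measured, with Atp5b on day 1 only and Atp5c1 on day 2 only. The days of complex V thus also compare different probes. In series B complexes I and V were above 0 only on day 6 (0.36 over 3 probes and 0.23 over 7), and complex IV was at -0.72 there. Complex I had 1 probe with a value on each of days 0 and 3 of series B and 2 on day 5, so its days compare different probes.

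**Figure D2:**
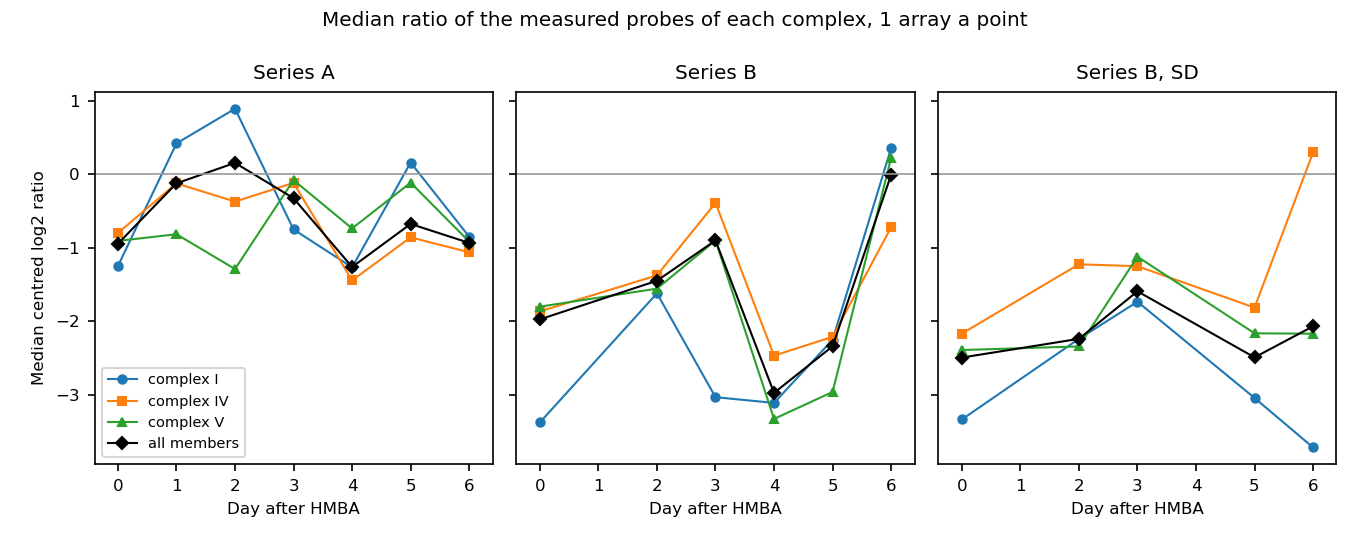
Median centred log2 ratio of the measured probes of complexes I, IV and V and of all members (lines), 1 array a point, against day after HMBA, for series A, series B and the SD arrays. In series A complex I is at 0.42 and 0.90 on days 1 and 2 while complex V is at -0.81 and -1.29. Each complex V value is over 5 of its 8 probes, not the same ones on both days.

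Complex I was represented by the accessory subunits Ndufa1, Ndufa2, Ndufb11 and Ndufs4, which surround its catalytic core, and by Ndufaf3, an assembly factor that is not part of the finished complex. Ndufa2 was at -1.20, 0.42, 0.29, -0.71, -1.26, 0.35 and -0.69 on days 0 to 6 of series A. In series B it was at -3.38, -1.71, -3.84 and 0.36 on days 0, 2, 4 and 6, and at -4.30, -2.24, -1.75, -3.78 and -4.18 on the SD arrays. Day 0 was low in both series, day 4 was lower still, and the day 6 array of series B was higher than all other B arrays. Ndufs4, which takes part in assembling and stabilising the NADH-binding arm, was at -1.98, 0.44, 0.65, -1.001, -1.27, -1.22 and -0.09 in series A and at -1.25, -3.03, -2.98 and 0.99 on days 2, 3, 4 and 6 of series B. Its days 1 and 2 were above its only day 0 value outside SD arrays. Ndufa1, an essential subunit of the membrane arm, was at -1.18, 0.77, 0.60, -0.74, 0.54 and -2.40 on days 0, 1, 3, 4, 5 and 6 of series A and at -1.56, -3.25, -0.59 and -2.12 on days 2, 4, 5 and 6 of series B. Ndufb11, a further membrane arm subunit, ranged from -3.92 to 1.42 over 15 arrays, and Ndufaf3 from -1.56 to 1.14 over 6.

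Complex IV was covered by the general subunits Cox4i1, Cox5a, Cox5b, Cox7a2, Cox7c and Cox8a, by Cox7a2l, which links complexes III and IV into supercomplexes, and by Cox6a2 and Cox8b, isoforms of heart and skeletal muscle. Cox7c, a small membrane subunit, had the largest difference between days 1 and 2 and day 0, and Cox8a, another small membrane subunit, was measured on all 18 arrays. Cox7c was at -1.89, -0.00, 1.22, 1.28, -1.44, -0.67 and -1.86 on days 0 to 6 of series A. In series B it was at -4.71, -2.42, -4.49, -2.47 and -1.71 on days 0, 2, 4, 5 and 6, and the SD arrays gave -3.30, -2.69, -2.22, -2.54 and -4.41. In each series the day 0 value was the lowest of those arrays not marked SD, although the values of series A and B differed by more than 2 log2 units on several days. Cox8a was at -0.49, 0.89, 0.59, -0.54, -0.15, -0.93 and -0.28 in series A and at -0.91, 1.22, -0.39, 0.91, -1.20 and 1.74 in series B. Its 3 values of days 1 and 2 exceeded both day 0 values, and its late values lay on both sides of them.

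Cox4i1, the widely expressed isoform of the subunit that regulates the enzyme by ATP, was at -0.80, 1.67, -1.39, 0.80, -1.44, -0.92 and -1.59 in series A and at -1.24, -1.49, -0.49, -2.21 and -1.63 on days 0, 2, 4, 5 and 6 of series B. The SD arrays of days 0, 3, 5 and 6 gave -2.17, -1.46, -2.49 and 0.91. Among the arrays not marked SD, the values above 0 were on days 1 and 3 of series A, both among the arrays that correlated least with the rest. Cox5a, a subunit on the matrix side, was at -0.45, -0.78, -1.34, -0.75, -1.83, -0.67 and -0.94 in series A and at -1.59, -0.19, 0.01, 0.02, -3.04 and 0.16 in series B. All 7 values of series A were below the array median, and those of series B were close to it on 4 of 6 arrays. Cox5b, which binds zinc on the matrix side, ranged from -4.01 to 0.85 over 13 arrays, Cox7a2 from -3.13 to 1.07 over 12 and Cox7a2l from -4.16 to 0.02 over 17. The muscle isoform Cox6a2 had values on 13 arrays between -2.47 and 0.58, and Cox8b had 5 values between -1.50 and -0.12. A ratio carries no level, so a value for a muscle isoform shows a measured spot and not how much transcript there was.

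Complex V was covered by the subunits Atp5a1 (alpha), Atp5b (beta) and Atp5c1 (gamma) of the catalytic head and central stalk, by Atp5j (coupling factor 6) of the peripheral stalk, by Atp5j2 (f), Atp5k (e) and Atp5l (g) of the membrane sector, and by a probe annotated Atp5k-ps1, a pseudogene of Atp5k with which signal may be shared. Atp5b was at -0.68, 0.85, -0.60, -0.23, -1.64 and -0.66 on days 0, 1, 3, 4, 5 and 6 of series A. In series B it was at -2.89, -0.66, -3.87, -2.96 and 0.27 on days 0, 2, 3, 5 and 6, so the day 2 and day 6 values stood 2 log2 units or more above day 0. Atp5k was at -0.53, -1.17, 0.90, -0.11, -0.43, -0.11 and -0.93 in series A and at -3.07, -0.92, -0.35, -0.70 and -1.56 on days 0, 2, 3, 5 and 6 of series B. Its day 0 value of series B was far below the other 4 of that series, and in series A day 0 was in the middle of the range. Atp5c1 was nearest the array median, from -1.52 to 1.06 over 17 arrays, and Atp5a1 ranged from -3.47 to 1.20 over 11. The other members spread further down, Atp5j from -4.15 to 0.37, Atp5j2 from -4.74 to 0.45, Atp5l from -4.45 to 0.11 and Atp5k-ps1 from -3.92 to 0.74.

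Promoter sequence was compared because respiratory chain genes are known targets of the nuclear respiratory factors NRF1 and GABP (an ETS factor) and of YY1. RefSeq sequence (GRCm38.p6) of the 250 bases before the annotated start was found for 17 member genes in 19 windows, and Ndufa2, Atp5a1, Cox6a2, Cox4i1 and Atp5k-ps1 had no entry. The NRF1 core CGCATGCG, which is its own reverse complement, was in 3 of the 17 genes (Atp5j, Atp5k and Atp5l) and in 1.549 percent of 32851 windows of all genes. The ETS core CCGGAAG, or CTTCCGG on the other strand, was in Atp5j and Atp5l (2 genes) and in 6.907 percent of windows. The YY1 motif AAGATGGC, or GCCATCTT on the other strand, was in 1 gene, Atp5j, and in 1.565 percent of windows. The matches of different motifs did not overlap. Median GC content was 56.0 percent in the member windows and 52.4 percent in all. Shown 5′ to 3′, with matches in capitals, are the window of Cox7c, which had the largest early difference among tested members and 0 matches, and those of Atp5k and Atp5l, 2 membrane sector genes with the NRF1 core whose early differences had opposite signs. They lie at chr13:86046796-86047045 (Cox7c), chr5:108434400-108434649 (Atp5k) and chr9:44920743-44920992 (Atp5l), all on the minus strand, and were chosen after their values were seen.
Cox7c: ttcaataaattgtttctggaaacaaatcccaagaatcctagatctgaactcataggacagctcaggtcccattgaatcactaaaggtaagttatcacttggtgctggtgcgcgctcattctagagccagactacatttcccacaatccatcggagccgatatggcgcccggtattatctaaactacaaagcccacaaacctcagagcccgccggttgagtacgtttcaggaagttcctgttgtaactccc
Atp5k: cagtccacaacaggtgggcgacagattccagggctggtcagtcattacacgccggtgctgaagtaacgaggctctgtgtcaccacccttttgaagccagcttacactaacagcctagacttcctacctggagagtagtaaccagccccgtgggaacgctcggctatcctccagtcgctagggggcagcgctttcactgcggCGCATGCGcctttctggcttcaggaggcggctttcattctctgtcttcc
Atp5l: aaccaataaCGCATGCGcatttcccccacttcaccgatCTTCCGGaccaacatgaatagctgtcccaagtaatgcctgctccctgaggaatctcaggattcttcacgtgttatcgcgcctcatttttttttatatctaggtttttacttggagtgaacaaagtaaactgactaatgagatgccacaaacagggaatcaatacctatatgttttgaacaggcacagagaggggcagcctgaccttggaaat
The NRF1 core begins 49 bases before the start in Atp5k and 241 bases before it in Atp5l, where the ETS core begins at 212. A match describes letters in a window and no binding.

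The difference between days 1 and 2 and day 0, which addresses the first days with HMBA, was above 0 for 14 of 17 fitted members, with a median of 0.88 on the log2 scale, against 0.08 and 53.6 percent of all fitted probes. Of the members, 12 held enough values for a test, on at least 11 of the 13 arrays not marked SD and on each day of the contrast. By limma with Benjamini-Hochberg adjustment 0 of them passed at 0.05 (0 percent of 1060 probes tested passed). An unadjusted p under 0.05 was reached by 1 of the 12 (3.49 percent of probes). That member was Cox7c, at 3.00 above day 0 (SE 1.23, limma adjusted p = 0.9985), with 3 of 3 arrays above the day 0 mean. Ndufa2 was 2.15 above day 0 (SE 1.05, limma adjusted p = 0.9985), Ndufs4 2.05 (SE 1.22) and Cox8a 1.60 (SE 0.83), each on 3 of 3 arrays. The tested members below day 0 were Atp5l at -0.66 (SE 1.15) and Atp5j at -0.15 (SE 0.96), and the untested Cox6a2 was at -0.04. By complex, the median difference was 1.47 over 4 members of complex I, 0.48 over 8 of complex IV and 1.21 over 5 of complex V.

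The values of these early arrays overlapped those of day 0 for 14 of the 17 members. Cox8a, Ndufs4 and Atp5b did not overlap, and 33.3 percent of all fitted probes did not. Day 1 and day 2 of series A had the low correlations given above, and whether these shaped the result was not tested. Day 1 had 1 array and could not be left out, and the median without day 2 of series A is given below. Taken by itself, day 2 minus day 0 of series B was above 0 for 10 of 14 members with a median of 1.65, against 68.3 percent and 0.51 over all probes. In series A, day 1 minus day 0 was above 0 for 14 of 17 members (median 0.97, all probes 0.07) and day 2 minus day 0 for 9 of 14 (median 1.14, all probes -0.07). The fitted median was 1.58 when the series A array of day 0 was left out and 1.45 when that of day 2 in series B was. It fell to 0.76 without day 2 of series A (13 of 17 members above 0). Without day 0 of series B it was 0.78 (11 of 17). Cox7c was at 1.59 when the series B array of day 0 was left out. With values as deposited 15 of 17 members were above 0 (median 1.10), and 14 were after quantile normalization (1.73) and with equal spread (1.501). Of all tested probes, 60.3 percent were above 0 as deposited and 55.2 percent with each of the other 2 scalings, against 57.3 percent when centred. Of the 12 tested members, 10 were above 0 each time. Relative to day 0 of the SD arrays, 12 of 17 members were also above 0 on day 2 (median 0.77, with 58.6 percent and 0.34 over all probes) and 16 of 17 on day 3 (median 1.59, with 66.1 percent and 0.56). If the SD arrays hold control over treated, as their channel labels read, these values run opposite to the early differences. In a bulk sample, a different share of cells of a type and a different amount of RNA per cell cannot be told apart.

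Days 4, 5 and 6 were set against day 0 for the later phase of the treatment. The difference was above 0 for 12 of 20 fitted members (median 0.30), against 59.4 percent and 0.16 over all fitted probes. Of 13 tested members 0 passed by limma at an adjusted 0.05, as did 0 percent of 1211 probes, and 0 of them had an unadjusted p under 0.05 (2.31 percent of probes). The highest by p-value were Ndufa2 at 1.50 (SE 0.95), Atp5k at 1.11 (SE 0.84), Cox7c at 1.19 (SE 1.08) and Cox8a at 0.72 (SE 0.72). The lowest were Cox7a2l at -0.98 (SE 1.19), Atp5l at -0.79 (SE 1.09), Cox4i1 at -0.36 (SE 0.69) and Cox5a at -0.03 (SE 0.82). All 20 members overlapped between the late and the day 0 arrays, while 16.1 percent of fitted probes did not. The median was 0.38 for complex I, 0.04 for complex IV and 0.50 for complex V.

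The sign of this late median rested on single arrays. Without day 0 of series B it was -0.23 and without day 4 of series A -0.10, while without day 0 of series A it was 0.88. With values as deposited 16 of 20 members were above 0 (median 0.53), also 16 after quantile normalization (0.68) and 17 with equal spread on every array (0.67). Leaving out the centring moved the median of all tested probes from 0.21 to 0.46 and the share above 0 from 62.7 to 74.5 percent. That share was 55.1 percent after quantile normalization and 59.1 percent with equal spread. Of the 13 tested members, 9 were above 0 when centred and after quantile normalization, and 10 as deposited and with equal spread. Series A alone gave a median of 0.04 over 18 members, and series B alone gave 0.71 over 8.

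Days 4 to 6 were below days 1 and 2 for 16 of 18 fitted members. The median difference was -0.92, against -0.00066 over all fitted probes, of which 50 percent were above 0. Of 12 tested members 0 passed by limma at an adjusted 0.05 (0 percent of 1050 probes), and 1 had an unadjusted p under 0.05 (6.57 percent). That was Cox4i1 at -1.50 (SE 0.63, limma adjusted p = 0.7247), with 6 of 6 late arrays below the early mean. That mean rested on the 1 array of day 1 at 1.67, since day 2 had a mean of -1.44 (n = 2), next to the late mean of -1.38. Cox7c was at -1.81 (SE 0.97, 6 of 6 arrays), Cox7a2l at -1.49 (SE 0.81, 5 of 6) and Cox8a at -0.88 (SE 0.65, 4 of 6). Atp5j at 0.33 (SE 0.76) was the only tested member above 0, beside the untested Cox6a2 at 0.80. All 5 members of complex I were below 0 (median -1.03), as were 7 of 8 of complex IV (-0.61) and 4 of 5 of complex V (-0.13).

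Late and early values of all 18 members overlapped, and 5.09 percent of fitted probes did not overlap. Both contrasts with day 0 and this one share arrays, so their signs are not separate evidence. Without day 2 of series A the median was -0.57 with 5 of 17 members above 0. Within series B, days 4 to 6 minus day 2 was below 0 for 8 of 10 members, with a median of -0.60, while the median over all probes was -0.33 and 29.1 percent of them were above 0. With values as deposited 5 of 18 members were above 0 with a median of -0.66, with quantile normalization 3 and with equal spread 4. The shares of all tested probes above 0 were 60.5, 47.1 and 50.5 percent, and of the 12 tested members 3, 2 and 3 were above 0.

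**Figure D3:**
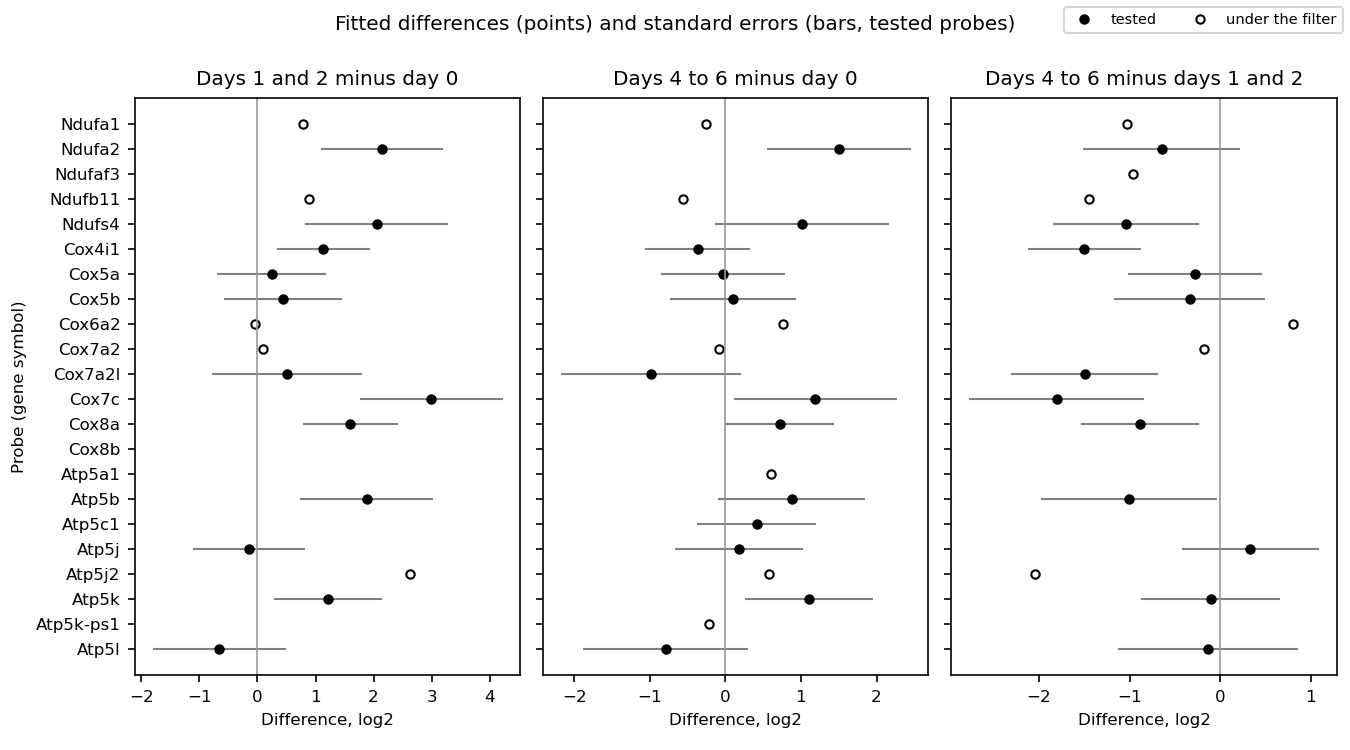
Fitted log2 differences (points) and standard errors (bars, tested probes only) of the members for days 1 and 2 minus day 0, days 4 to 6 minus day 0 and days 4 to 6 minus days 1 and 2; open points had too few values for the test. Most points lie right of 0 in the first panel (14 of 17) and left of 0 in the last (16 of 18), and Cox7c is farthest right in the first at 3.00.

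If the SD arrays were deposited as their channel labels read, a bias of a probe toward 1 channel cancels in the difference between the B and the SD array of a day divided by 2 (a balanced ratio). If their sign had been turned, the treatment cancels in it instead. On day 0, where both arrays held control RNA, the balanced ratio had a median of -0.06 over 14 members, between -0.96 and 1.25, and of -0.16 over all probes. On day 2 the member median was 0.31 with 13 of 18 above 0 (all probes 0.02). The day 3 median was -0.81 with 1 of 9 above 0 (all probes -0.48), and the day 5 median was -0.20 with 4 of 13 above 0 (all probes 0.08). The highest median, 0.83 with 11 of 13 members above 0, was that of day 6 (all probes 0.14). On day 6 all 3 measured members of complex I and all 5 of complex V were above 0, and Cox4i1 was the lowest at -1.27. The highest on that day were Ndufa2 at 2.27 and Ndufs4 at 1.53, beside Cox7a2l at 1.46. The ribosomal protein probes of day 6 had a median of 0.54 with 11 of 14 above 0, so the shift of that pair was not confined to respiratory chain probes.

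**Figure D4:**
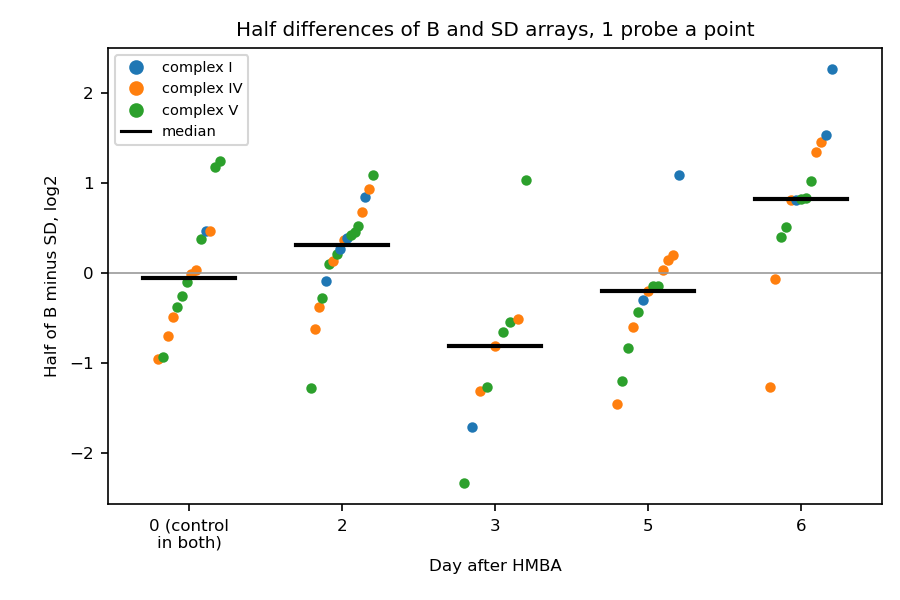
Balanced log2 ratios (the B minus the SD array of a day, divided by 2) of the members, 1 probe a point, coloured by complex, on days 0, 2, 3, 5 and 6; black lines are medians. The median is -0.06 on day 0, lowest on day 3 (-0.81) and highest on day 6 (0.83).

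Over the 4 pairs of days 2, 3, 5 and 6, taken as replicates, 4 of 11 tested members had a mean balanced ratio above 0, with a median of -0.09 (46.6 percent and -0.04 over all probes). By limma, 0 of the 11 passed at an adjusted 0.05, against 1.22 percent of 1310 probes. An unadjusted p under 0.05 was reached by 1 member, against 13.4 percent of probes. Ndufa1 had balanced ratios of 0.84, 1.09 and 0.81 on days 2, 5 and 6, a mean of 0.91 (SE 0.35, limma adjusted p = 0.2761), above 0 on 3 of 3 days. Atp5k at 0.67 (SE 0.35) and Cox7c at 0.51 (SE 0.38) were also above 0 on each of 3 days, and Cox7a2l was at 0.26 (SE 0.38), above 0 on 3 of 4. Cox5a had -0.62, -0.52, -1.46 and -0.07 on days 2, 3, 5 and 6, a mean of -0.66 (SE 0.32, limma adjusted p = 0.3713), below 0 on all 4 days. Atp5b was at -0.70 (SE 0.42), Atp5j at -0.28 (SE 0.35) and Atp5c1 at -0.22 (SE 0.32).

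Without the day 3 pair the member median was 0.47 with 7 of 11 above 0, and 0.08 over all probes. Atp5b was then at -0.15, Atp5c1 at -0.08, Atp5j at -0.20, Cox7a2l at 0.78 and Atp5k at 0.48. Without the day 6 pair the member median was -0.43, and Atp5b passed the limma threshold at -1.27 (adjusted p = 0.01635), as did 5.65 percent of 1310 probes. Ndufa1 and Cox7c had no value on the day 3 pair, and Cox5a was at -0.71 without it. The mean of the B and SD arrays, in place of their difference, passed by limma for 8 of 11 members, all below 0, against 45.3 percent of probes. Of the 1310 probes, 329 passed above 0 and 264 below. The median of the member means was -1.25 over 4 pairs and -1.61 without day 3, with 9 of 11 members below 0 each time.

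Other genes of mitochondrial energy supply were taken as lists. Of the citric acid cycle, which feeds electrons to the chain, 2 of 4 fitted probes were higher on days 4 to 6 than on day 0, with Suclg1, of succinyl-CoA ligase, at 0.98 (SE 0.78) and Mdh2, mitochondrial malate dehydrogenase, at -0.50 (SE 0.77). Among inner membrane and outer membrane carriers 4 of 6 were higher (median 0.26), with the ADP/ATP carriers Slc25a4 at 0.28 (SE 0.91) and Slc25a5 at -0.27 (SE 0.91) and the outer membrane channel Vdac1 at 0.24 (SE 1.35). Of probes for mitochondrial protein import and chaperones 5 of 10 were higher (median 0.11), with the inner membrane translocase subunits Timm23 at 0.74 (SE 0.98) and Timm17b at 0.56 (SE 0.76) and the outer membrane pore Tomm40 at -0.15 (SE 0.85). Of the same list 8 of 9 were higher on days 1 and 2 (median 0.92), close to the value of the respiratory chain probes. Its median for days 4 to 6 minus days 1 and 2 was -0.91, with 2 of 8 above 0. On days 1 and 2 the carriers had 6 of 7 higher (median 0.40) and the citric acid cycle 2 of 3 (1.14). The regulators had 2 of 4 higher on days 4 to 6, with the transcription factor Yy1 at -1.31 (SE 0.76) and the mitochondrial transcription factor Tfb2m at 0.41 (SE 1.16). On days 1 and 2, 2 of 5 regulators were higher (median -0.58). Assembly factors and electron carriers had 2 probes, of which 0 could be fitted against day 0. In these 5 lists 0 probes passed by limma in any of the 4 comparisons. An unadjusted p under 0.05 was reached by 1 of 2 tested regulators early (3.49 percent of all probes). In the balanced ratio 2 of 6 tested import probes reached it (13.4 percent of all probes). Below 0 in that ratio were 6 of 6 import probes, 3 of 3 of the citric acid cycle and 2 of 2 carriers. Both regulators were above 0 there, as were 46.6 percent of all probes.

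Glycolysis, which supplies ATP without mitochondria, had 6 of 10 fitted probes higher on days 4 to 6 (median 0.82). It had 8 of 10 higher on days 1 and 2 (median 0.68), and 3 of 9 above 0 for late minus early (median -0.68). Pkm, pyruvate kinase of muscle type, was at 2.12 (SE 1.33) and Pfkp, a phosphofructokinase, at 1.80 (SE 1.08), whereas Ldha, lactate dehydrogenase A, was at -0.77 (SE 0.81) and Hk1, hexokinase 1, at -0.05 (SE 0.96). None of the 6 tested probes passed by limma in the late comparison, and Ldha passed in the balanced ratio at -1.49 (SE 0.31, adjusted p = 0.02432; also -1.49 without day 3). The erythroid markers had 6 of 7 fitted probes higher late with a median of 2.34. Hba-ps3, at 4.43 (SE 0.89, limma adjusted p = 0.1873), did not pass there. In the balanced ratio it was at 3.05 (SE 0.47, limma adjusted p = 0.00242), with 3.88 without day 3. The balanced ratio was chosen because Hba-ps3 ran opposite ways on B and SD arrays. Its pass there follows from that choice and is no support. Hbb-b2 was at 2.34 late (SE 0.85) and Epor, the erythropoietin receptor, at -0.08 (SE 0.97). Of markers of other cell types, 3 of 3 fitted megakaryocyte probes were higher late (median 0.40). Among them Itga2b, the integrin of platelets, was at 2.49 (SE 0.77, limma adjusted p = 0.9999), a larger late difference than that of any member. Higher were 0 of 2 lymphoid probes, and 0 macrophage or fibroblast probes could be fitted late. Their part in the results was not tested.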

How the data were processed

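Total RNA of HMBA-treated and control MEL cells was measured on 18 two-colour arrays. The authors deposited log2 ratios, a scale recognised from their steps; the dyes, scanner, image analysis, earlier normalization and numerator are not given in the sources used here. No spot intensity was used here, so signal over background is unknown. Of 6868 probes, 6108 had 1 gene symbol, 41 several and 719 none. Each array was centred on its median. Probes with values on at least 11 of the 13 arrays not marked SD, and on a day 0 array, were tested with limma 3.58.1 in R 4.3.3 in 1 fit over the days (n = 2 a day, day 1 n = 1), with Benjamini-Hochberg adjustment over all of them. Balanced ratios needed 3 of 4 pairs. Of the members, 13 passed the first filter, and the other 9 have values without a test. A contrast needed a value on each of its days. The steps were tested on simulated data. Members, lists, tests and alternatives were chosen with earlier results of these data known. Named were, in each comparison, the 4 members higher and the 4 lower with the smallest p-values, genes of core roles and muscle isoforms, and from other lists the 2 higher and 2 lower genes with the smallest late p-values; other values given were chosen after they were seen.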

Additional observations from a re-analysis of the deposited data

How the results depend on the processing

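With each array left out in turn, the member median ranged from -0.23 to 0.88 late, from 0.76 to 1.58 early and from -1.32 to -0.57 for late minus early, with 0 members passing by limma in each; leaving out pairs gave -0.43 to 0.47 for the balanced ratio, with 0 to 1 members passing (0 to 74 of 1310 probes). When the ratios themselves were set against 0 in place of day 0, the median was -1.05 late and -0.41 early, Ndufa2 was at -0.79 late and Cox7c at -0.30 early, and 4 members passed late (Cox4i1, Cox5b, Cox7a2l and Cox7c, all below 0, against 25.4 percent of probes, 112 of 1211 below 0). Averaging the B and SD arrays without exchanging the sign gave a median of -1.25 (-1.61 without day 3, added after seeing the data), Ndufa1 at -2.34 and 8 of 11 members passing, all below 0 (45.3 percent of probes, 264 of 1310 below 0). With the series letter as a replicate block the median was 0.48 late, 1.09 early and -0.95 for late minus early, and 0 members passed, with 3 in place of 1 at an unadjusted p under 0.05 early (4.81 in place of 3.49 percent of probes). After quantile normalization 6 of 12 tested members reached an unadjusted p under 0.05 early (125 of 1060 probes). With equal spread it was also 6 of 12 (108 of 1060 probes). Deviations of arrays of 1 letter from their day means correlated at 0.028 to 0.39 over 15 pairs of days, above 0.1 in 14. This hints at a deviation shared within a letter, but 1 pair was under 0.1 and the labels name no shared culture, so pairing was not assumed. Within series B, day 2 minus day 0 had a median of 1.65 (all probes 0.51), added after seeing the data. Days 4 to 6 minus day 2 of that series, also added then, had a median of -0.60 (all probes -0.33). With 18 arrays, SD turned and an orientation term, the median was 0.08 late, 0.69 early and -0.61 for late minus early, and Ndufs4 was at 0.66 early. Over the 3 members with values on all 13 arrays it was 0.18, 0.25 and -0.28. The balanced median was -0.25 with values on all 4 pairs and -0.06 with at least 2. These and the other scalings and filters kept the direction of each median and 0 members passing. Series B alone and leaving out day 1 could not give an early or late minus early value, because day 1 had 1 array. The number of arrays limits precision: a standard error was 0.69 to 1.19 for members late.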
